A study of Mus musculus with 16 samples.

Results

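Zinc enters and leaves the cytosol through members of 2 protein families. The Slc30 family (ZNT proteins) mostly moves zinc out of the cytosol, and the Slc39 family (ZIP proteins) moves it in. A total of 10 such genes were followed here, Slc30a1, Slc30a4, Slc30a5, Slc30a6, Slc30a7, Slc30a9, Slc39a6, Slc39a7, Slc39a10 and Slc39a14, out of 20622 genes with total RNA values and 15235 with ribosome footprint values. They were chosen by name, and because footprints per mRNA of Slc30a4 were known to be higher in the cells edited at Eif4a2. The comparison of the cell lines therefore entered the choice, and the differences between the lines are given below for these genes as a description. Their values and calls come from fits over all genes, and nothing is supported with them.

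The cells, called KM, came from the lung tumours of 1 mouse carrying Rosa26LSL-MYC/LSL-MYC among its alleles, so both lines share a MYC transgene. KM_NTC cells received a lentiCRISPR vector with a non-targeting guide. KM_4A2cr cells received one with a guide against the coding sequence of Eif4a2, which encodes an RNA helicase of the translation machinery, and were a pool of 4 clones lacking the protein on western blots. Cells were untreated, and the 4 replicates of each line were plated and harvested on different days. Libraries of the same replicate number are taken below as 1 day, which rests on their numbers and on how alike they were, not on a stated date. From every lysate, ribosome-protected fragments (RPFs, or footprints, the stretches of mRNA covered by ribosomes) and cytoplasmic total RNA were sequenced, giving 16 libraries. Because 1 mouse gave all the cells and each condition is 1 cell line, p-values measure the spread between days. They do not measure the spread between animals, tumours, or separately edited lines or clones.

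Library totals ran from 4512403 to 9621848 footprint counts and from 5350920 to 9312624 total RNA counts, with the lowest total of each kind in KM_4A2cr replicate 4. Replicate 4 also stood apart in other ways. In each line and kind of library it had the lowest mean correlation with the other replicates, from 0.903 to 0.930 against 0.929 to 0.963 for replicates 1 to 3. Footprints of Eif4a2 were lower in KM_4A2cr in 4 of 4 pairs, at ratios of 0.523, 0.725, 0.750 and 0.889 for replicates 1 to 4. Their log2 fold change was -0.49 (SE 0.15, adjusted p = 0.0941 in the quasi-likelihood test of edgeR). The adjusted p without replicates 1, 2, 3 and 4 in turn ran from 0.00304 to 0.377, and only the fit without replicate 4 passed 0.1. In replicate 4 Eif4a2 was far higher in both lines, at 389 footprint CPM in KM_NTC and 346 CPM in KM_4A2cr, above the 97.7 to 122 CPM of KM_NTC replicates 1 to 3. CPM are counts scaled to the library total. The protein was not measured here. The epithelial markers Epcam, Cdh1, Krt8, Krt18 and Krt19 summed to 3911 to 4824 TPM (a level scaled to transcript length and to the library) in KM_NTC and 4010 to 5714 TPM in KM_4A2cr. Of 9 alveolar type II markers, 6 stayed under 1 TPM in every library, among them Sftpc and Nkx2-1. Abca3 (27.6 to 47.6 TPM) and Etv5 (6.19 to 21.4 TPM) stayed above 1 TPM in every library, and Lamp3 ran from 0.52 to 1.63 TPM. The fibroblast list summed to at most 3.03 TPM and the endothelial list to at most 1.94 TPM. Of 4 immune markers only Cd68 was above 1 TPM, with sums of 33.2 to 220 TPM in KM_NTC and 37.5 to 154 TPM in KM_4A2cr.

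The members differ in where they place zinc. Slc30a5 and Slc30a6 encode ZNT5 and ZNT6, which work as a heterodimer, and with ZNT7 (Slc30a7) they load zinc into the early secretory pathway, where enzymes such as alkaline phosphatases and phosphodiesterases receive the metal. ZNT4 (Slc30a4) carries zinc into the trans-Golgi network, endosomes and lysosomes. ZNT1 (Slc30a1) exports zinc across the plasma membrane, and SLC30A9 acts in mitochondria. ZIP6 (Slc39a6) and ZIP10 (Slc39a10) bring zinc in at the plasma membrane, ZIP14 (Slc39a14) brings in zinc, iron and manganese, and ZIP7 (Slc39a7) releases zinc from the endoplasmic reticulum and Golgi into the cytosol. Slc30a4, Slc30a5, Slc30a6 and Slc30a7 are called loaders below, since they fill the lumen of secretory and endosomal compartments.

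Zinc controls some of these genes through MTF1, a zinc-sensing transcription factor that binds metal response elements in the promoters of Slc30a1 and of the metallothionein genes Mt1 and Mt2. The core of that element, TGCACNC or TGCGCNC, was searched on both strands of the RefSeq promoter windows (GRCm38.p6), which span 250 bases before to 50 bases after a gene's start. Windows were found for 8 of the 10 members, all but Slc39a6 and Slc39a14. The core was present in the windows of 3 members, Slc30a1, Slc30a4 and Slc30a5, and in 25.7% of all 32851 windows. The matches lying wholly upstream of the start in these members are shown with 1 each from Mt1 and Mt2, because the levels of all 5 genes are followed below. Capitals mark the core on either strand.
Slc30a1, plus strand, chr1:191906727-191906755: acgggggttccGAGTGCAaagcaaagttt
Slc30a4, minus strand, chr2:122702874-122702902: ccgggggctcaGAGCGCAcaagacctcag
Slc30a4, minus strand, chr2:122702738-122702766: tcgcgcctcgcGGGCGCAcgcgccgcctc
Slc30a5, minus strand, chr13:100833458-100833486: cgtgtccaccaGCGCGCAggcgcaggatt
Mt1, plus strand, chr8:94179055-94179083: cggtcccgctgTGCACACtggcgctccag
Mt2, plus strand, chr8:94172557-94172585: ggggggagggcGTGTGCAggctctgtccc
The core in Slc30a1 lies 43 to 37 bases before the start, that in Slc30a5 48 to 42 bases before it, and those in Slc30a4 228 to 222 and 92 to 86 bases before it. A match of these letters is a description of the sequence and not a site of binding.

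Slc30a4 had the widest gap between its footprint and mRNA differences of the 10 members. Its footprints in KM_NTC were 53.1, 20.2, 35.5 and 34.2 CPM in replicates 1 to 4, and in KM_4A2cr 105, 31.9, 61.7 and 35.5 CPM. Every KM_4A2cr library lay above the KM_NTC library of the same day, although the ranges of the lines overlapped and the replicate 4 values were almost equal. Its total RNA was 515, 344, 518 and 354 CPM in KM_NTC and 634, 387, 544 and 271 CPM in KM_4A2cr. Here 3 pairs were higher and 1 was lower in KM_4A2cr. The fitted log2 fold change was 0.65 (SE 0.16) in footprints, a fold of 1.57, and 0.04 (SE 0.16) in total RNA, where the sign changed under other scalings. Each kind of library was scaled within itself, so a change shared by all mRNAs would not be seen, and in bulk lysates fewer cells with a transcript cannot be told apart from less of it per cell.

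Footprints per mRNA of Slc30a4, taken as footprint CPM divided by total RNA CPM, were 0.103, 0.0586, 0.0685 and 0.0965 in KM_NTC and 0.166, 0.0824, 0.113 and 0.131 in KM_4A2cr. The means were 0.0817 ± 0.0215 and 0.123 ± 0.0349 (SD, n = 4). The lines overlapped across days, but on each day the KM_4A2cr ratio was the higher, by 1.60, 1.40, 1.65 and 1.36 times. In the model of translational efficiency (TE, the change in footprints relative to total RNA), Slc30a4 had a log2 fold change of 0.60 (SE 0.10), or 1.52-fold. This placed it at rank 113 of 9989 genes from the top. This is the value by which the gene was chosen, so it is given as a description.

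**Figure D1:**
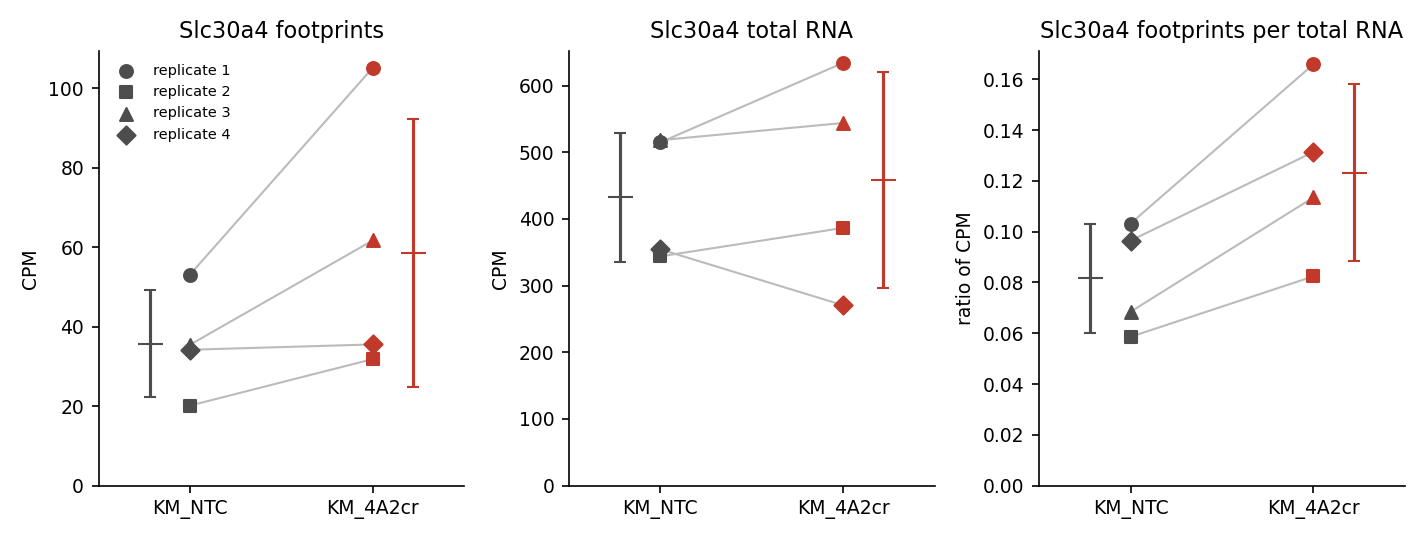
Slc30a4 in each library: footprint CPM (left), total RNA CPM (middle) and footprints per total RNA (right, ratio of CPM) in KM_NTC (grey) and KM_4A2cr (red). Marker shapes are replicates, grey lines join libraries of 1 day, and the bars beside the points are mean ± SD (n = 4). The ratio is higher in KM_4A2cr on all 4 days, with means of 0.0817 and 0.123, while total RNA means are 433 and 459 CPM.

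The genes around Slc30a4 had other footprint values. It lies on chromosome 2, whose 838 tested genes had a median footprint log2 fold change of -0.21, against -0.01 over all genes. In total RNA the medians were -0.17 for 908 genes of the chromosome and 0.01 for all genes. The 10 nearest tested neighbours had a median of -0.26 in footprints, -0.11 in total RNA and -0.12 in TE. Of these, 2 had a footprint value above 0, B2m at 0.33 and Sema6d at 1.03. The flanking genes AA467197 and Bloc1s6 had footprint values of -0.26 and -0.14. Chromosome numbers and gene order come from RefSeq.

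The deposited total RNA has 2 isoforms of Slc30a4, and footprints were counted on 1 of them, ENSMUST00000005952.11. That isoform held 59.7% of Slc30a4 TPM in KM_NTC (58.1 to 61.0% over 4 libraries) and 58.6% in KM_4A2cr (54.5 to 61.5%). The ranges overlapped. With only that isoform counted as total RNA, TE of Slc30a4 was 0.61. RSEM divided the reads among isoforms, yet fractional expected counts were rare (27 to 58 isoforms in a library), and these shares are therefore uncertain.

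No other loader was called in TE. Slc30a5, the larger partner of the ZNT5-ZNT6 pair, had footprints of 117, 60.7, 114 and 110 CPM in KM_NTC and 206, 90.9, 155 and 97.5 CPM in KM_4A2cr. In total RNA it had 142, 93.9, 146 and 140 CPM in KM_NTC and 235, 124, 214 and 113 CPM in KM_4A2cr. Both measures were higher in KM_4A2cr in replicates 1 to 3 and lower in replicate 4, so TE was near 0 at 0.07 (SE 0.10).

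Slc30a6, whose product ZNT6 needs ZNT5 for transport, had footprints of 81.2, 60.0, 100.1 and 134 CPM in KM_NTC and 127, 71.2, 88.9 and 106 CPM in KM_4A2cr. The mRNA of Slc30a6 stood at 45.3, 25.8, 42.2 and 60.0 CPM in KM_NTC and 76.0, 36.6, 60.8 and 44.7 CPM in KM_4A2cr. The footprints were higher in KM_4A2cr in replicates 1 and 2 and lower in 3 and 4, while mRNA was higher in 3 of 4 pairs. The TE value, -0.25 (SE 0.12), was the lowest of the 10 members and the next in size after that of Slc30a4, and it was not called. For its partner gene Slc30a5 the value had the opposite sign. The isoform used for footprints held 35.9% of Slc30a6 TPM in KM_NTC, out of 3 isoforms.

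Slc30a7, the Golgi loader ZNT7, was higher in both measures on all 4 days by CPM. By TPM its total RNA in replicate 4 was lower in KM_4A2cr, at 24.0 against 27.1. Footprints were 206, 131, 225 and 174 CPM in KM_NTC and 290, 192, 294 and 267 CPM in KM_4A2cr. Total RNA was 207, 139, 203 and 167 CPM in KM_NTC and 323, 200.3, 303 and 199 CPM in KM_4A2cr. The log2 fold changes were 0.51 (SE 0.12) in footprints and 0.50 (SE 0.13) in total RNA, so TE was 0.01 (SE 0.10). Replicate 4 differed in its split, with a pair ratio of 0.62 in footprints and 0.25 in total RNA on the log2 scale.

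**Figure D2:**
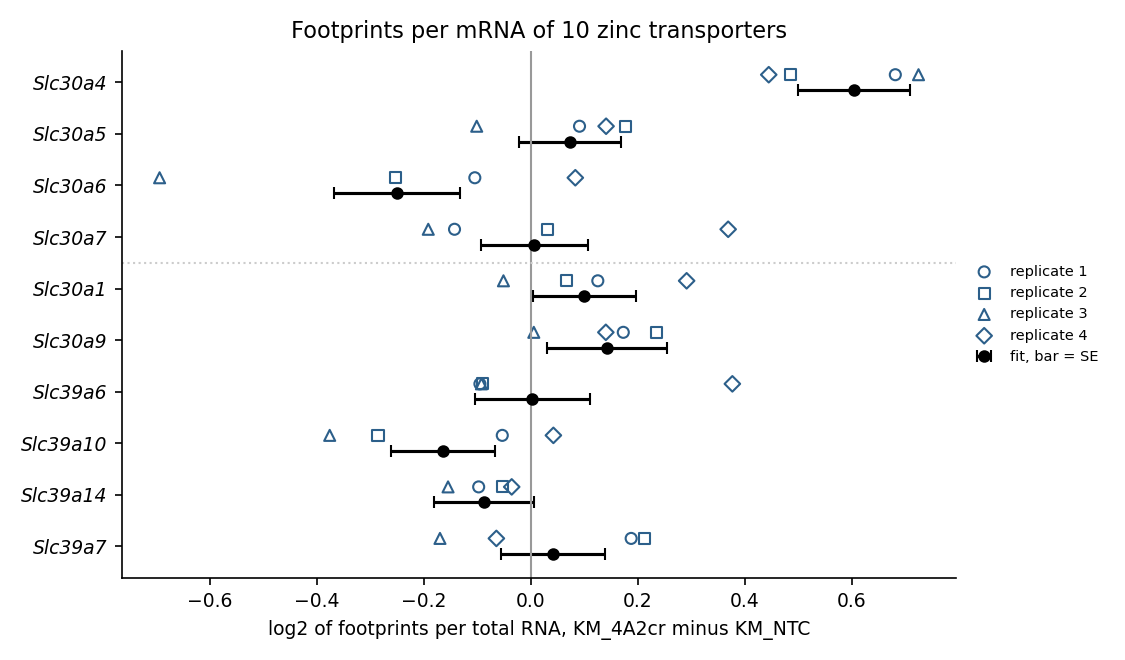
Change in footprints per total RNA of each member, KM_4A2cr minus KM_NTC, on the log2 scale. Open symbols are the 4 replicate pairs, and black points are fitted values with SE; the 4 loaders stand above the dotted line. Slc30a4 lies between 0.44 and 0.72 in all 4 pairs, and the other 9 members have fitted values from -0.25 to 0.14.

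Among the transporters that do not load the secretory lumen, Slc30a1 (the plasma membrane exporter ZNT1) varied most. Its footprints were 57.1, 126, 280.1 and 206 CPM in KM_NTC and 57.1, 250.4, 498 and 185 CPM in KM_4A2cr. Its total RNA was 66.9, 167, 332 and 248 CPM in KM_NTC and 61.3, 318, 612 and 182 CPM in KM_4A2cr. The lines were nearly equal in replicate 1, KM_4A2cr was 1.78 to 1.99 times higher in replicates 2 and 3, and it was lower in replicate 4. TE was 0.10 (SE 0.10), so footprints followed mRNA through these swings.

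Slc30a9, which acts in mitochondria, had the most even difference by CPM. Its total RNA was 84.7, 88.4, 103 and 96.4 CPM in KM_NTC and 104, 108, 130 and 119 CPM in KM_4A2cr, and the log2 ratios of the pairs ran only from 0.29 to 0.33. These total RNA ranges came close without overlapping, with 102.9 CPM as the highest in KM_NTC and 103.5 CPM as the lowest in KM_4A2cr. By TPM they overlapped, at 25.1 to 33.5 in KM_NTC and 23.1 to 38.1 in KM_4A2cr. In replicate 4 the TPM was lower in KM_4A2cr, at 23.1 against 25.1. The gene was not called in total RNA, and its footprint call by edgeR was not shared by DESeq2. Its footprints were 20.5, 16.9, 24.2 and 30.8 CPM in KM_NTC and 28.3, 24.4, 30.7 and 42.0 CPM in KM_4A2cr, with pair ratios from 0.34 to 0.52 on the log2 scale. Its TE was 0.14 (SE 0.11), and it was the only member besides Slc30a4 with a TE value above 0 in all 4 pairs. Over all genes this held for 10.5%.

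The plasma membrane importers differed between themselves. Slc39a10 (ZIP10) had total RNA of 223, 106, 172 and 354 CPM in KM_NTC and 361, 230, 253 and 389 CPM in KM_4A2cr, higher in every pair. By TPM its total RNA in replicate 4 was lower in KM_4A2cr, at 78.1 against 95.4. Its footprints were 177, 79.1, 142 and 343 CPM in KM_NTC and 276, 140, 162 and 389 CPM in KM_4A2cr. The total RNA log2 fold change of 0.62 (SE 0.16) was the highest of the members, with 0.46 (SE 0.15) in footprints and -0.16 (SE 0.10) in TE.

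Slc39a6 (ZIP6), its close relative, had total RNA of 81.2, 32.6, 52.9 and 66.5 CPM in KM_NTC and 128, 48.7, 75.0 and 38.5 CPM in KM_4A2cr. Its footprints were 162, 61.3, 114 and 136 CPM in KM_NTC and 239, 86.0, 151 and 103 CPM in KM_4A2cr. Replicate 4 turned the other way, with the lowest total RNA ratio of any member in any pair, -0.78 on the log2 scale. The TE value was 0.0026 (SE 0.11).

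Slc39a14 (ZIP14), the zinc, iron and manganese importer, had footprints of 208, 158, 275 and 264 CPM in KM_NTC and 288, 208, 301 and 201 CPM in KM_4A2cr. In total RNA the values were 114, 82.4, 102 and 90.2 CPM in KM_NTC and 170, 113, 124 and 70.5 CPM in KM_4A2cr. It was the one member whose TE value was below 0 in all 4 pairs, though by little, from -0.15 to -0.04. Among all genes 11.3% were below 0 in all 4 pairs.

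Slc39a7 (ZIP7), which returns zinc from the endoplasmic reticulum and Golgi to the cytosol, was higher in KM_4A2cr in every pair of both measures by CPM. By TPM its total RNA in replicate 4 was almost equal, at 145 in KM_NTC and 144 in KM_4A2cr. Its footprints were 177, 117, 209 and 396 CPM in KM_NTC and 275, 165, 266 and 507 CPM in KM_4A2cr. Total RNA was 148, 94.7, 114 and 217 CPM in KM_NTC and 201, 115, 163 and 290 CPM in KM_4A2cr. Its log2 fold changes were 0.46 (SE 0.12) and 0.42 (SE 0.12), and TE was 0.04 (SE 0.10).

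At an adjusted p of 0.1 by edgeR, 4 of the 10 members were called higher in KM_4A2cr in footprints (Slc30a4, Slc30a7, Slc30a9 and Slc39a7) and 0 lower. Over all 10291 genes tested, 6.6% were called higher and 3.72% lower. In total RNA, 3 members were called higher (Slc30a7, Slc39a7 and Slc39a10) and 0 lower, where 4.35% of 10880 genes were called higher and 1.78% lower. In TE, Slc30a4 was called higher and 0 members lower, where 1.87% of 9989 genes were called higher and 1.04% lower. All 10 passed the filter on low counts in each measure. The rule used this contrast, so nothing is read from these counts. The median log2 fold change of the 10 was 0.44 in footprints, 0.34 in total RNA and 0.02 in TE, beside -0.01, 0.01 and -0.02 over all genes.

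**Figure D3:**
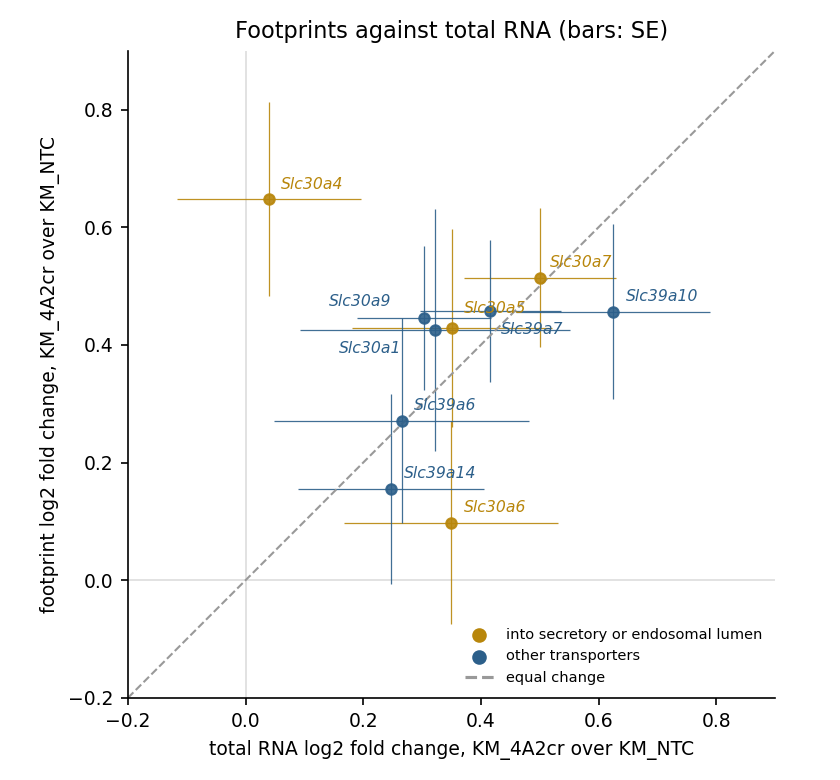
Fitted log2 fold change of footprints (vertical axis) against that of total RNA (horizontal axis), KM_4A2cr over KM_NTC, for the 10 members, with SE bars in both directions. Loaders are in gold, other transporters in blue, and the dashed line marks equal change. Slc30a4, at 0.65 in footprints and 0.04 in total RNA, lies farthest above the line.

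These calls changed with the replicates included. The median log2 ratio of the members in replicates 1 to 4 was 0.60, 0.54, 0.36 and -0.05 in footprints and 0.60, 0.48, 0.52 and -0.33 in total RNA. In the first 3 pairs 9 or 10 members were above 0 in each measure, and in replicate 4 this held for 5 members in footprints and 4 in total RNA. These are ratios of CPM, and by TPM every member was lower in KM_4A2cr in replicate 4. Without replicate 4, 9 members were called higher in footprints and 9 in total RNA, where 19.1% and 17.8% of all genes were, and Slc30a4 was still the 1 member called in TE, where 4.1% of genes were called higher. Without replicate 1, 2 or 3, each left out in turn, 0 members were called in footprints or in total RNA, where 4 to 5 and 3 to 4 members had an unadjusted p under 0.05. In those fits 1.53%, 0.914% and 0.281% of all genes were called higher in footprints and 1.23%, 0.944% and 0.458% in total RNA, so few genes of any kind were called. TE of Slc30a4, by which it was chosen, was 0.57 without replicate 1 and 0.63 with no replicate block, and it was called in neither of these fits. Over all genes those 2 fits called 10 and 0 in TE, beside 291 in the fit with all replicates and the block.

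**Figure D4:**
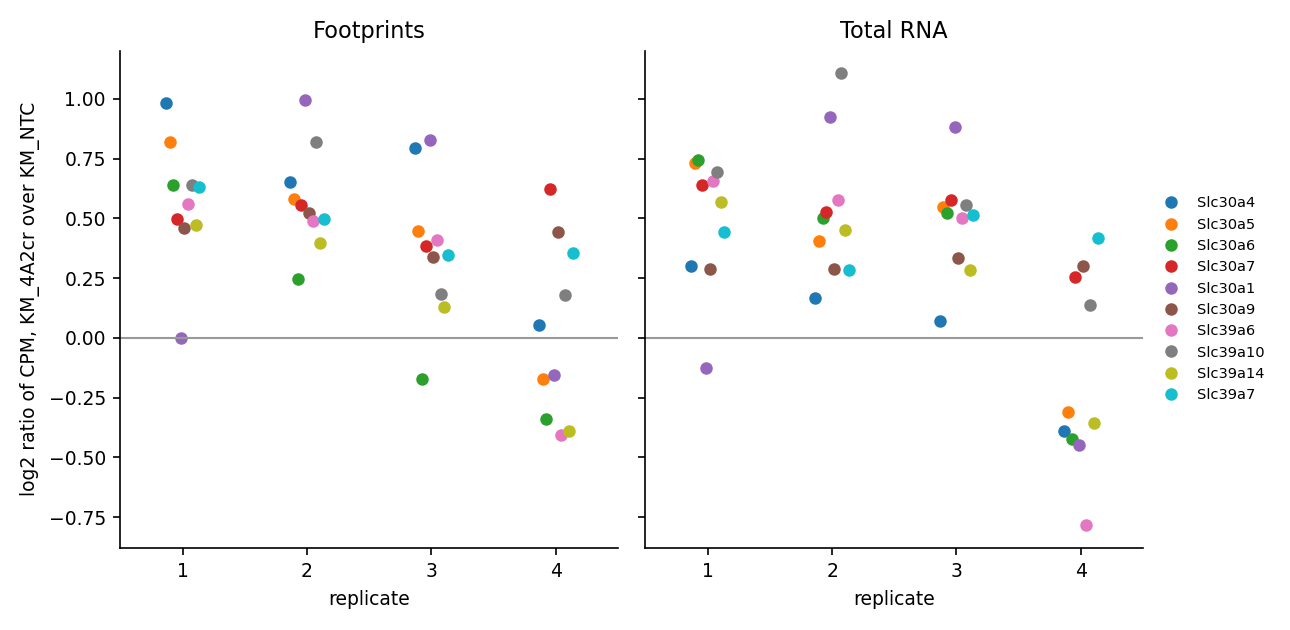
Log2 ratio of CPM, KM_4A2cr over KM_NTC, of the 10 members in each replicate, for footprints (left) and total RNA (right); each colour is 1 gene. Member medians are 0.60, 0.54, 0.36 and -0.05 in footprints, and in replicate 4 only Slc30a7, Slc30a9, Slc39a7 and Slc39a10 lie above 0 in both panels.

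Loaders and the other transporters were much alike as groups. The median log2 fold change of the 4 loaders minus that of the 6 others was 0.04 in footprints, 0.04 in total RNA and 0.02 in TE. By replicate pair the difference ran from -0.07 to 0.21 in footprints, from -0.24 to 0.18 in total RNA and from -0.04 to 0.16 in TE, so its sign was not stable in any measure. Leaving Slc30a4 out of the loaders gave -0.01, 0.04 and -0.02. The TE values of Slc30a5, Slc30a6 and Slc30a7 ran from -0.25 to 0.07.

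Days are independent of the comparison of the lines, since each replicate number held both, and the difference between days was tested. It passed an adjusted p of 0.1 by edgeR for 9 of 10 members in footprints, where 65.9% of all genes did, and for 9 of 10 in total RNA, where 61.1% did. The exceptions were Slc39a14 in footprints (adjusted p = 0.134) and Slc30a9 in total RNA (adjusted p = 0.345). Without replicate 2 the footprint count fell to 4. The share of all genes in that fit is not given here, so the fall is not read as particular to the members. The spread over days was widest for Slc30a1, at 2.70 log2 units in footprints (adjusted p = 0.00143) and 2.81 in total RNA (adjusted p = 0.00115). It was lowest in replicate 1 and highest in replicate 3 in both measures and both lines. In footprints the other 9 members were all lowest in replicate 2 by the mean of both lines, although in KM_4A2cr alone Slc39a14 was lowest in replicate 4 (201 against 208 CPM).

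The order of mRNA levels was read from TPM, which are per length. In KM_NTC, Slc30a4 had the highest mean, 174 ± 43.4 TPM (SD, n = 4), above 92.3% of the 10880 tested genes. It was followed by Slc39a7 at 113 ± 25.7, Slc30a5 at 81.2 ± 10.9, Slc30a1 at 69.1 ± 37.0 and Slc39a10 at 66.8 ± 23.2 TPM. Then came Slc30a6 at 52.3 ± 10.6, Slc39a14 at 46.8 ± 8.30, Slc30a7 at 35.3 ± 6.63, Slc30a9 at 29.6 ± 4.05 and Slc39a6 at 26.9 ± 8.52 TPM. Neighbours in this order overlapped in their ranges over libraries, except Slc39a7 (92.0 to 145 TPM) and Slc30a5 (70.8 to 91.5 TPM). The median of all tested genes was 18.9 TPM. Footprints were not ordered between genes, because coding lengths were not used here.

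**Figure D5:**
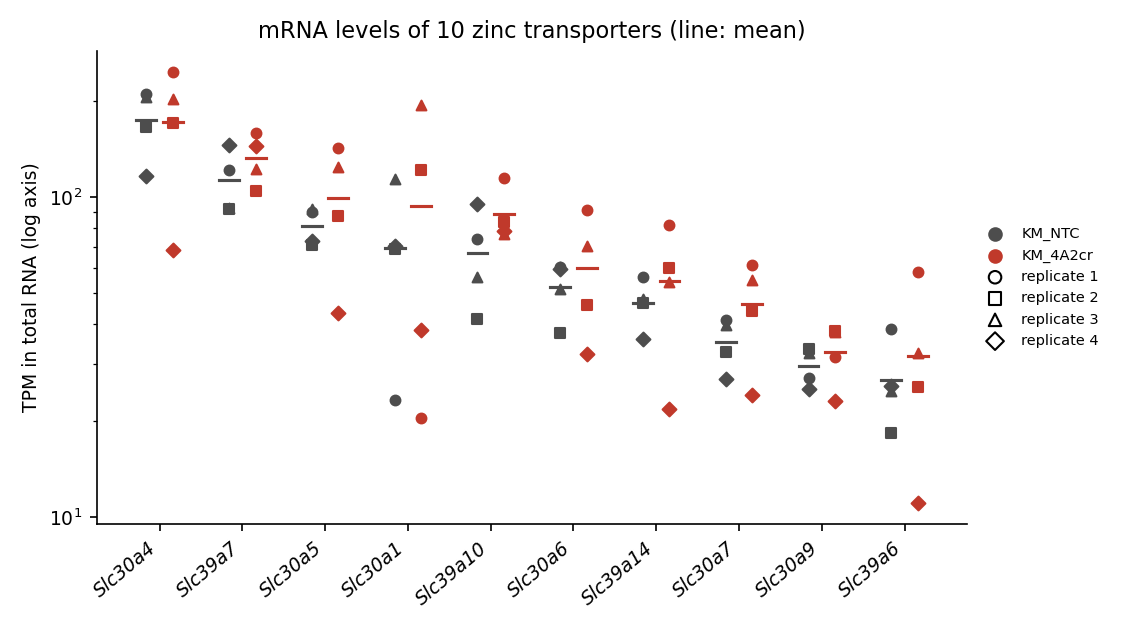
TPM in total RNA (log axis) of the 10 members in KM_NTC (grey) and KM_4A2cr (red), ordered by the KM_NTC mean; marker shapes are replicates and lines are means. Means run from 174 TPM for Slc30a4 to 26.9 TPM for Slc39a6 in KM_NTC, and Slc30a1 spans 20.4 to 194 TPM in KM_4A2cr. In replicate 4 every member is lower in KM_4A2cr by TPM.

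The genes whose pattern over the 16 libraries was nearest to that of Slc30a4 were Slc35b3, which carries the sulphate donor PAPS into the Golgi, Agpat3, an acyltransferase of phospholipid synthesis, and Tmem267. Likeness was the root mean square distance of log2 CPM centred within each kind of library. It was 0.17, 0.19 and 0.19 log2 units, against a median of 0.68 over 9988 genes. Their footprint log2 fold changes were 0.59, 0.71 and 0.47, and their TE values 0.35, 0.31 and 0.43. Of these, Tmem267 passed the threshold in TE (adjusted p = 0.0893 by edgeR, from 0.0497 to 1.00 over the alternatives). The differences between the lines were part of the distance, so these values carry no independent information.

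Of the other zinc transporters, 7 of 15 listed genes had enough counts to be tested. In footprints 3 were higher in KM_4A2cr and 0 lower, where 6.6% and 3.72% of all genes were, in total RNA 1 was higher and 0 lower, where 4.35% and 1.78% were, and in TE 0 were called by edgeR or DESeq2, with 0 of the 7 under an unadjusted p of 0.05. The list's median log2 fold change was 0.52, 0.36 and 0.18 in the 3 measures. Slc39a3 (ZIP3), an importer, had a footprint log2 fold change of 0.69 (SE 0.20, adjusted p = 0.0816 by edgeR). Slc39a11 (ZIP11) had 0.54 (SE 0.15, adjusted p = 0.0768 by edgeR). Both calls were lost without replicate 1, 2 or 3 (adjusted p of 0.280 to 0.349 for Slc39a3 and 0.250 to 0.363 for Slc39a11) and with library size only (0.113 for each), and that of Slc39a3 also by DESeq2 (0.229). Slc39a4 (ZIP4), an importer named after its values were seen, was the 1 gene of the list under an unadjusted p of 0.05 in the other direction. Its log2 fold change was -0.69 in footprints (adjusted p = 0.142 by edgeR) and -0.64 in total RNA (adjusted p = 0.126), and DESeq2 called it lower in both. Slc39a1 (ZIP1), a plasma membrane importer, had 0.34 in footprints and 0.40 in total RNA and passed in neither (adjusted p = 0.296 and 0.234 by edgeR).

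Tmem163, a zinc transporter of vesicles and the plasma membrane, showed the largest difference among these genes. Its footprints were 7.97, 7.54, 16.2 and 12.8 CPM in KM_NTC and 29.2, 27.2, 57.5 and 20.7 CPM in KM_4A2cr. The ranges did not overlap. Its log2 fold change was 1.61 in footprints (SE 0.20, adjusted p = 0.00641 by edgeR) and 1.39 in total RNA (SE 0.30, adjusted p = 0.0372 by edgeR). The footprint call was lost without replicate 3 (adjusted p = 0.142, from 1.0e-08 to 0.710 over the alternatives). The total RNA call was lost without replicate 1, 2 or 3 (adjusted p = 0.174, 0.196 and 0.351 by edgeR), and its replicate 4 pair was -0.13 on the log2 scale. Its level was low, with 108 total RNA counts over the 4 KM_NTC libraries.

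Metallothioneins bind zinc in the cytosol, and the difference between the lines was larger in their mRNA than in their footprints. Mt2 total RNA was 33.2, 7.73, 18.9 and 9.01 CPM in KM_NTC and 54.1, 15.9, 46.6 and 9.91 CPM in KM_4A2cr, higher in 4 of 4 pairs, by 0.85 on the log2 scale (SE 0.18, adjusted p = 0.0322 by edgeR). Mt2 footprints were 127, 35.6, 98.1 and 25.2 CPM in KM_NTC and 124, 57.4, 150.0 and 37.4 CPM in KM_4A2cr, with a log2 fold change of 0.45 that did not pass (adjusted p = 0.122 by edgeR). In both kinds of library the values ranged more widely over days than between the lines of a day.

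Mt1 total RNA was 224, 54.9, 124 and 80.3 CPM in KM_NTC and 332, 87.8, 251 and 73.8 CPM in KM_4A2cr. Its footprints were 241, 95.3, 185 and 66.1 CPM in KM_NTC and 209, 111, 195 and 78.6 CPM in KM_4A2cr, and neither measure passed (adjusted p = 0.124 in total RNA and 0.751 in footprints by edgeR). TE fell for both genes, by 0.53 for Mt1 (SE 0.13, adjusted p = 0.0582 by edgeR) and by 0.50 for Mt2 (SE 0.14, adjusted p = 0.0893 by edgeR). The pairs of replicates 1 to 3 gave -0.78, -0.46 and -0.93 for Mt1 and -0.73, -0.33 and -0.67 for Mt2, whereas replicate 4 gave 0.37 and 0.43. Both TE calls, and the total RNA call of Mt2, were lost without replicate 1, 2 or 3. In those fits only 10, 41 and 15 of all genes were called in TE, beside 291 with all replicates. Over the alternatives adjusted p ran from 7.9e-05 to 1.00 for Mt1 TE, from 0.00423 to 1.00 for Mt2 TE and from 1.8e-05 to 0.999 for Mt2 total RNA.

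Of 11 names listed for zinc buffering, sensing and chaperoning, 10 matched a gene and 9 were tested. Beside the metallothioneins only Erp44 was called. In footprints 1 gene was higher, where 6.6% of all genes were, and in total RNA 1 was, where 4.35% were. In TE 2 were lower, where 1.04% were. Erp44, a zinc-dependent chaperone of the early secretory pathway, had a footprint log2 fold change of 0.52 (SE 0.15, adjusted p = 0.0817 by edgeR), a call lost without replicate 1, 2 or 3 (adjusted p = 0.258 to 0.374). Mtf1 had 0.01 in footprints and 0.20 in total RNA, and neither passed (adjusted p = 0.993 and 0.500 by edgeR). The sign of its footprint value changed with the scaling.

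Zinc enzymes of the secretory pathway and cell surface were the third list, with 24 of 35 genes tested in footprints. In footprints 5 were higher in KM_4A2cr and 0 lower, where 6.6% and 3.72% of all genes were. In total RNA 2 of 25 were higher, where 4.35% of all genes were. In TE 0 of 24 were called by edgeR or DESeq2, with 1 under an unadjusted p of 0.05. Over all genes edgeR called 1.87% higher and 1.04% lower in TE. The list median was 0.25 in footprints, 0.25 in total RNA and -0.0015 in TE. The called genes were Smpd1, the acid sphingomyelinase (0.66), the membrane proteases Adam10 (0.55) and Adam19 (1.44), and the carboxypeptidases Cpe (0.76) and Cpd (0.44), by footprint log2 fold change. Adam19 and Cpe were also called in total RNA, at 1.32 and 0.73. The footprint calls of Smpd1, Adam10, Adam19 and Cpd were lost without replicate 1, 2 or 3, and that of Cpe without replicate 2 or 3. In total RNA the call of Adam19 was lost without replicate 1 or 3 and that of Cpe without replicate 1, 2 or 3. Over the 3 lists, 9 of 40 tested genes were called higher in footprints and 0 lower, with 15 and 1 under an unadjusted p of 0.05, where 6.6% of all genes were called higher. That count was 2, 1, 0 and 27 without replicates 1, 2, 3 and 4, and 1 of the 27 was lower, where 1.53%, 0.914%, 0.281% and 19.1% of all genes were called higher. In total RNA 4 of 41 were higher and 0 lower, where 4.35% of all genes were called higher and 1.78% lower. That count was 0, 1, 0 and 30 without replicates 1 to 4, and 2 of the 30 were lower. In those fits 1.23%, 0.944%, 0.458% and 17.8% of all genes were called higher.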

How the data were processed

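RPFs and cytoplasmic total RNA of KM_NTC and KM_4A2cr were compared over 4 replicates. The RPF tables the authors deposited hold counts of footprints over each coding sequence. The authors describe leaving codons at both ends of the coding sequence out of the sums they tested. The counts were made after Cutadapt 1.18 trimming, alignment to 1 protein-coding transcript per gene (GENCODE vM27) and removal of duplicates with UMI-tools 1.0.1. For total RNA the authors deposited RSEM 1.3.3 expected counts and TPM per isoform, after Bowtie2 2.3.5.1, without pooling replicates. Here counts were summed per gene, expected counts were rounded, and symbols were matched by gene identifier, with 36 genes unnamed.

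Tests used R 4.3.3 and edgeR 4.0.16 (filterByExpr, TMM, glmQLFit, glmQLFTest) with line and replicate as terms, and p-values adjusted by Benjamini-Hochberg over every gene tested, called under 0.1. TE was the interaction of line and kind of library over 16 libraries, with lysate and replicate within kind as terms. CPM are TMM-scaled within each kind, and log2 CPM had a prior count of 2. Days were tested by the F test of 3 replicate terms. Replicates were separate experiments on different days, and RPFs and total RNA of a number share a lysate. That a number marks the same day in both lines was inferred: deviations of the lines from their means correlated between same-numbered libraries at 0.575 to 0.782 in RPFs and 0.611 to 0.756 in total RNA. Counts near the filter give imprecise folds, and members had at least 132 RPF counts in a library. Tests were tried on simulated counts.

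The members and gene lists were chosen with earlier results of these data known. Genes named are the members, Eif4a2, every called gene of the zinc lists, Mt1, Mt2, Mtf1, Slc39a1 and the 3 genes nearest to Slc30a4. B2m, Sema6d, AA467197, Bloc1s6 and Slc39a4 were named after their values were seen. Alternatives were no replicate block, DESeq2 1.42.0, 3 scalings, 2 filters, a threshold of 0.05, the RPF isoform alone and each replicate left out. Protein sequences were not used here. The rest of the genotype, which both lines share, is not reported here.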

Additional observations from a re-analysis of the deposited data

Results flagged for a closer look

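In KM_NTC, Slc30a5 was low in replicate 2 in both kinds of library, by Dixon's test for a single far value in a group of 4. Its footprints were 60.7 CPM against 110 to 117 CPM in the other 3 libraries. Its total RNA was 93.9 CPM against 140 to 146 CPM. Both libraries come from 1 lysate, and in the KM_4A2cr libraries of the same day Slc30a5 was not flagged, at 90.9 and 124 CPM. These were 2 flags among 40 groups of 4 libraries, and chance flags about 1 in 20.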

How the results depend on the processing

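With no replicate block, 0 genes were called in any measure by edgeR (365 in footprints, 362 in total RNA and 22 in TE had an unadjusted p under 0.05, among them 0 members), so the counts of members and of zinc list genes called were 0. The threshold of 0.05 left 1 member in footprints, 0 in total RNA, 1 in TE, and 4 footprint and 0 TE calls in the zinc lists. The share of all genes at 0.05 is not given here, so these counts are not read as particular to those genes. Scaling by library size only shifted the median of all genes to -0.14 in footprints and -0.15 in total RNA, and left 2 and 0 members called and 0 zinc list genes in TE. Over all genes this scaling called 1619 in footprints, 1130 in total RNA and 132 in TE. The main fit called 1062, 667 and 291. Upper-quartile factors left 0 members in total RNA, where 541 of all genes were called. DESeq2 called 8 zinc list genes in total RNA and 0 in TE, where it called 589 and 139 of all genes. With no filter on low counts 9 zinc list genes were called in total RNA, where 1268 of all genes were.

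Leaving out each replicate in turn gave 0 to 9 members called in footprints, 0 to 9 in total RNA and 0 to 1 in TE, 0 to 27, 0 to 30 and 0 to 2 zinc list genes, and 4 to 10 members differing between days in footprints. Loaders minus others then ran from 0.010 to 0.16 in footprints and from -0.14 to 0.071 in total RNA. Over the settings TE of Slc30a4 ran from 0.57 to 0.65 and was called in 11 of 13, and its total RNA value from -0.12 to 0.17. Signs also changed for values near 0. Footprints of Mt1 gave -0.051 with library size only, and those of Mtf1 -0.011 with no replicate block, -0.034 with upper-quartile factors, -0.13 with library size only, -0.0051 with no filter and -0.19 to 0.19 with replicates left out. Total RNA of Tmem267 gave -0.016 with upper-quartile factors, -0.13 with library size only and -0.085 to 0.27 with replicates left out. In TE, Cpd gave 0.014 with library size only and -0.0748 to 0.0699 with replicates left out, Cpe -0.034 to 0.098 and Slc39a1 -0.17 to 0.026. The cause of these changes was not tested.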
